A study of Mus musculus with 58 samples.

Results

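Expression of 6 genes that respond to glucocorticoid hormones or to metals (Fkbp5, Tsc22d3, Sgk1, Zbtb16, Mt1 and Mt2) was followed across lung, liver and forestomach of mice given the polycyclic aromatic hydrocarbon benz(a)anthracene (BaA). Every probe whose accession matched one of these symbols was taken, which gave 6 probes, 1 for each gene, of the 55681 probes on the array. The array covered 20018 gene symbols.

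The animals were male Muta™Mouse, a transgenic strain that carries a bacterial lacZ reporter for mutation scoring, about 10 weeks old and housed one to a cage. All of them carried the reporter, and all received olive oil by oral gavage once a day for 28 days, either alone (D0, 0 mg/kg-bw/day) or with BaA, in mg/kg-bw/day at 20 (group D1), 40 (group D2) or 80 (group D3). Tissues were collected 72 h after the last gavage. Mice 1 to 5 were D0, mice 6 to 10 D1, mice 11 to 15 D2 and mice 16 to 20 D3, so a mouse number ties the tissues of one animal together. Lung had 5 mice in every group, liver 5, 5, 5 and 4, and forestomach 4, 5, 5 and 5 from D0 to D3. The liver of mouse 20 and the forestomach of mouse 5 were not analysed here. Each of the 58 arrays compared one tissue of one mouse (Cy5) with the same reference RNA, pooled from mouse cell lines (Cy3), and levels below are log2(Cy5/Cy3) unless stated. A ratio to the reference can be compared between samples for one gene, but not between genes.

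Glucocorticoids (corticosterone in mice) are released by the adrenal gland in a daily rhythm and in stress, and act in nearly all tissues through the glucocorticoid receptor, encoded by Nr3c1. The hormone-bound receptor enters the nucleus and activates genes near its binding sites, among them Fkbp5, which encodes a co-chaperone that lowers the receptor's affinity for hormone, Tsc22d3 (GILZ), an anti-inflammatory mediator, the kinase gene Sgk1, and Zbtb16 (PLZF), a zinc finger transcription factor. Mt1 and Mt2 encode metallothioneins, small cysteine-rich proteins that bind zinc and copper. Their transcription is raised by metals through the factor Mtf1, by glucocorticoids and in the acute phase of inflammation.

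All 6 probes were well above background on 58 of 58 arrays and saturated on 0. The tissue markers followed the labels: the mean of 4 lung genes was 6.94 to 7.46 in lung, that of 3 measured liver genes 6.41 to 7.12 in liver, and that of 4 forestomach (squamous epithelium) genes 5.32 to 6.20 in forestomach. The lungs of mouse 5 (D0) and mouse 16 (D3) stood apart, with the squamous mean at 5.55 and 3.12 against -0.15 to 0.83 in the other lungs and with skeletal muscle genes at 5.88 and 1.97. In forestomach, the mean of 6 glandular stomach genes was 4.72 to 6.25 on 10 arrays and 0.95 to 2.67 on the other 9. The high arrays were 1 of 4 at D0, 5 of 5 at D1, 2 of 5 at D2 and 2 of 5 at D3, so the high arrays were spread unevenly over the groups, with most at the lowest dose. None of the 6 glandular genes was called by limma at any dose or in the trend, with 5, 1 and 1 at an unadjusted p under 0.05 at D1, D2 and D3. All 6 arrays of slide 2 were among the high ones, and these were also dim, with 36.8 to 40.6% of probes well above background against 51.1 to 68.5% on the other forestomach arrays. The mean of 3 fat genes varied as well, with medians of 5.05 at D0 and 0.32, 1.75 and 0.93 from D1 to D3. Tissue pieces hold many cell types, and fewer cells of a type and less RNA per cell cannot be told apart.

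Without BaA, the 6 genes had different levels in the 3 tissues. In one joint limma fit of all arrays, 5 of 6 members differed between lung and liver, 5 of 6 between lung and forestomach and 5 of 6 between liver and forestomach, where a call needed both a fold change of 1.5 or more and p, after Benjamini-Hochberg adjustment, no higher than 0.05. Of all probes tested, 50.6%, 31.8% and 44.9% were called in these comparisons. Sgk1 was at 0.29 ± 0.16 (SD, n = 5) in lung, 0.19 ± 0.15 (n = 4) in forestomach and -2.57 ± 0.21 (n = 5) in liver. Liver was thus the low tissue, 7.26-fold below lung and 6.78-fold below forestomach, and the lung and forestomach levels did not differ beyond their spread (adjusted p = 0.681). Tsc22d3 ran from 2.57 ± 0.61 in lung through 1.49 ± 0.38 in liver to 0.65 ± 0.29 in forestomach, and each step in that order was called. With each array centred on its median in place of loess, which moved the median difference of all probes by up to -0.684 (liver minus forestomach), 2 members passed for lung and liver and 3 for liver and forestomach. The calls lost were those of Fkbp5, Mt1 and Mt2 in the former and of Tsc22d3 (0.04) and Zbtb16 (0.22) in the latter. Zbtb16 in lung minus forestomach was lost too (0.91, adjusted p = 0.172).

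Zbtb16 stood at 4.86 ± 1.28 in lung, 4.40 ± 0.85 in liver and 3.25 ± 0.81 in forestomach. Both lung (3.05-fold, adjusted p = 0.00204) and liver (difference 1.15, adjusted p = 0.0217) were above forestomach, and lung and liver did not differ beyond their spread (0.46, adjusted p = 0.325). Fkbp5 was lower in lung (-0.72 ± 0.47) than in liver (0.27 ± 0.73; difference -1.0, SE 0.27, adjusted p = 0.00101) and forestomach (0.04 ± 0.09; difference -0.76, adjusted p = 0.0222), while liver and forestomach did not differ beyond their spread (adjusted p = 0.473). For the metallothioneins, forestomach was the high tissue and liver the low one. Mt2 was at 0.67 ± 0.13 in forestomach, -2.34 ± 1.0 in lung and -4.12 ± 0.35 in liver, and Mt1 at -0.43 ± 0.40, -2.0 ± 0.26 and -3.98 ± 0.54. Forestomach exceeded liver 27.6-fold for Mt2 and 11.7-fold for Mt1. These low ratios were taken against a bright reference, whose log2 signal was 15.85 to 17.45 for Mt1 and 15.42 to 16.97 for Mt2.

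Single animals decided some of these tissue calls. Without the vehicle lung of mouse 3, Zbtb16 in lung minus liver was 1.02 (adjusted p = 0.0165) and the Fkbp5 difference from forestomach was -0.56 (adjusted p = 0.104). Without the lung of mouse 5, Mt2 in lung minus liver was 1.34 (adjusted p = 0.0816). Mt1 in lung minus forestomach (-1.57, adjusted p = 0.0357) passed narrowly. It reached an adjusted p of 0.0533 to 0.0973 when the lung of mouse 1, 2 or 3 or the forestomach of mouse 2 or 3 was left out. Over all arrays left out 1 at a time, its adjusted p by limma ran from 0.000204 to 0.0973. For Mt2 in lung minus liver that range was 2.62e-05 to 0.0816. Vehicle Mt1 was -2.23 to -1.58 in lung and -0.70 to 0.16 in forestomach. The joint fit shares a gene's spread over all groups, among them liver at D1 (SD 2.86 for Mt1 and 3.23 for Mt2). Zbtb16 in liver minus forestomach was lost without the liver of mouse 1 (adjusted p = 0.0553) or the forestomach of mouse 3 (adjusted p = 0.153). With slide as a block, that difference was 0.98 (adjusted p = 0.154) and Mt1 in lung minus forestomach -1.15 (adjusted p = 0.2), so both calls were lost.

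Zbtb16 was the only member called in any dose group: in liver at D2 it fell 3.58-fold (log2 change -1.84, SE 0.36, limma adjusted p = 0.0156). In liver, the 5 vehicle mice read 4.92, 4.77, 2.89, 4.71 and 4.70 in order of mouse number. The D1 mice read 3.60, 3.83, 3.67, 3.52 and 4.10, and the D2 mice 2.57, 1.85, 3.58, 2.41 and 2.39. The 4 D3 mice read 2.05, 3.38, 2.59 and 3.50. All vehicle livers but that of mouse 3 lay above every dosed liver, and because of mouse 3 none of the dosed groups was fully separated from D0.

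**Figure D1:**
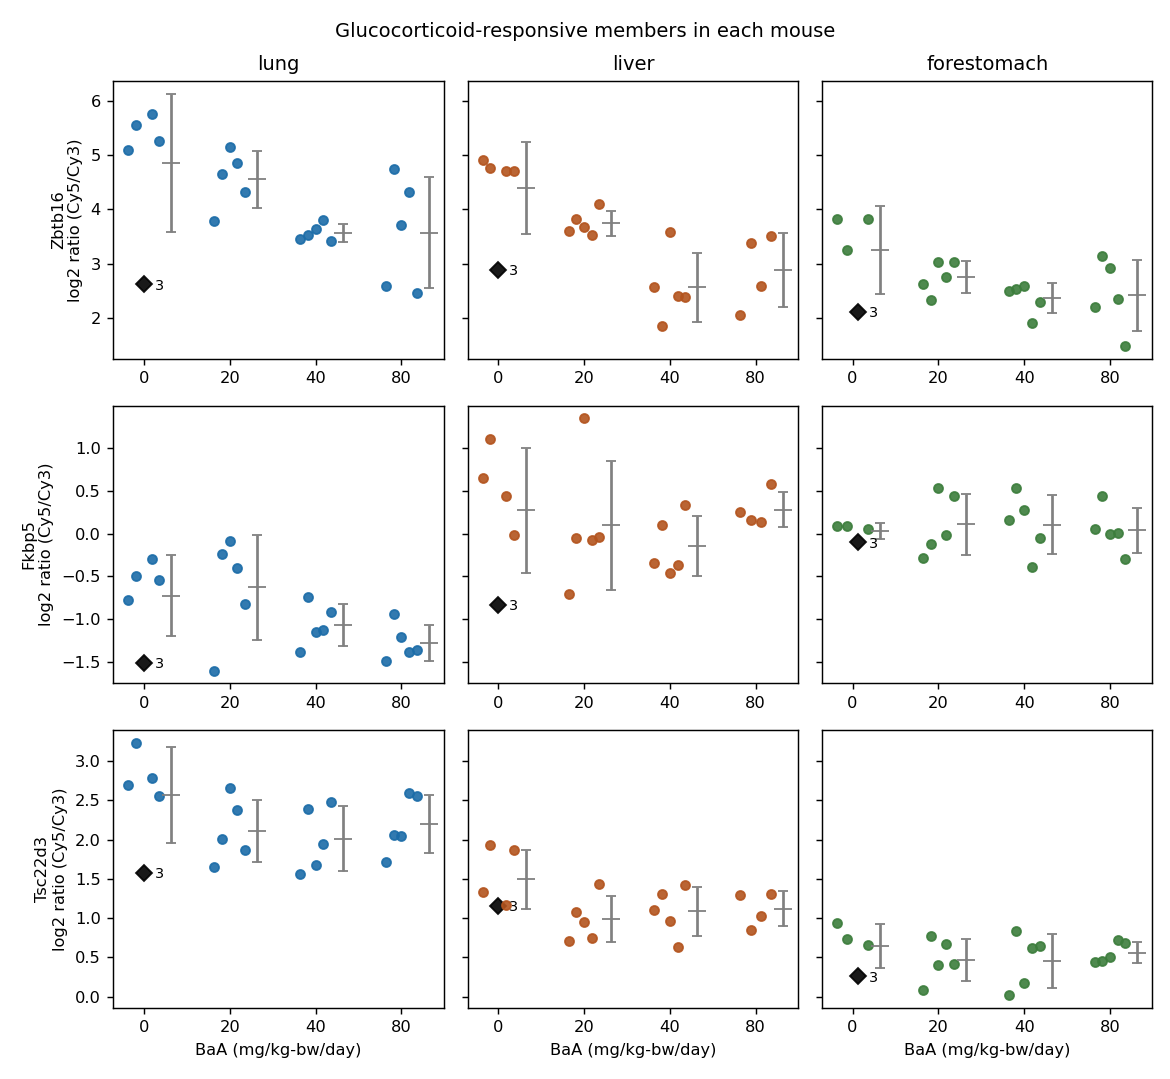
Level of Zbtb16, Fkbp5 and Tsc22d3, as log2(Cy5/Cy3), in each mouse (points) by tissue and BaA dose, with the group mean ± SD in grey and mouse 3 as a black diamond. Every dose group overlaps with vehicle for Zbtb16, and mouse 3 is its lowest vehicle mouse in all 3 tissues. With mouse 3 set aside, the Zbtb16 points of 14 of 14 dosed livers and 15 of 15 dosed forestomachs sit below the other vehicle mice.

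In lung, the Zbtb16 levels of the vehicle mice were 5.09, 5.56, 2.62, 5.76 and 5.26. They were 3.78, 4.65, 5.15, 4.86 and 4.32 at D1, 3.46, 3.52, 3.63, 3.81 and 3.41 at D2, and 2.59, 4.75, 3.71, 4.33 and 2.45 at D3. Again 4 vehicle mice lay together at the top and mouse 3 lay far below them, and 14 of 15 dosed lungs were below the second-lowest vehicle lung. Forestomach gave the same picture at a lower level, with vehicle mice 1 to 4 at 3.82, 3.25, 2.11 and 3.83. The D1 mice were at 2.63, 2.33, 3.03, 2.75 and 3.02, the D2 mice at 2.49, 2.53, 2.59, 1.90 and 2.29, and the D3 mice at 2.19, 3.14, 2.91, 2.34 and 1.48. Here every one of the 15 dosed mice was below the second-lowest vehicle mouse, by a narrow margin at the top (3.14 against 3.25). Such counts set aside the lowest vehicle animal, mouse 3, and each dose group of lung and forestomach overlapped with the full vehicle group. The share of all probes that meet the same cut was not computed. The fat genes were also lower in the dosed groups (median changes of -2.84, -1.80 and -2.55, 0 of 3 called by limma). With their mean as a covariate, the Zbtb16 changes were -0.38, -0.82 and -0.73 at D1, D2 and D3.

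Mean changes in Zbtb16 against vehicle were negative in 9 of 9 comparisons, and in 8 of 9 when each array was centred on its median in place of loess (lung at D1 then 0.02). The doses of a tissue share its vehicle mice, and the tissues come from the same animals, so these comparisons are not separate observations. In liver the changes were -0.65 (SE 0.36, adjusted p = 0.749) at D1 and -1.52 (SE 0.38, adjusted p = 0.0588) at D3. Lung values were -0.31, -1.29 and -1.30 (SE 0.49 each, adjusted p = 0.932, 0.19 and 0.109), and those of forestomach -0.50, -0.89 and -0.84 (SE 0.33 each, adjusted p = 0.968, 1 and 0.859). The slope on dose, over the full step from 0 to 80 mg/kg-bw/day, was -1.37 for lung (adjusted p = 0.0659), -1.64 for liver (adjusted p = 0.083) and -0.76 for forestomach (adjusted p = 0.9). None of the slopes passed, and 3 of 3 had an unadjusted p under 0.05.

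Which Zbtb16 comparisons passed depended on single animals. Without mouse 3, the change was -1.85 in lung at both D2 (adjusted p = 0.019) and D3 (adjusted p = 0.00719) and -1.90 in liver at D3 (adjusted p = 0.0115), all 3 called. The liver call at D2 was in turn lost without the liver of mouse 1, 2 or 4 (changes -1.71 to -1.76, adjusted p = 0.0509 to 0.0529). It was also lost in a fit of D0 and D2 alone (adjusted p = 0.0735). Liver at D3 was called without the liver of mouse 13 as well (adjusted p = 0.0456). Within slides, all 9 liver and all 9 forestomach differences were negative (-0.28 to -2.71 and -0.06 to -1.34). In lung, slides 1 and 3 gave -1.03 to -2.43, whereas slide 2, whose only vehicle array was that of mouse 3, gave 2.38, 1.09 and 1.70. Without the lungs of mice 5 and 16, the lung changes were -1.19 at D2 (adjusted p = 0.305) and -0.95 at D3 (adjusted p = 0.333). The reference signal of Zbtb16 was dim, with log2 values of 6.82 to 8.21.

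Other genes of mouse 3 were examined too. It was the lowest vehicle animal for 4 of 6 members in each of the 3 tissues. Of the list of other glucocorticoid targets, it was the lowest for 4 of 12 genes in lung, 5 of 11 in liver and 3 of 12 in forestomach, where mouse 5 (5 of 12 in lung) and mouse 2 (6 of 12 in forestomach) were the lowest more often. By the mean of that list, however, mouse 3 was the lowest vehicle animal in each tissue. The mean was 0.28 in lung (others 0.53 to 1.03), 0.31 in liver (others 0.41 to 0.72) and -0.14 in forestomach (others 0 to 0.15) for mouse 3. The clock gene Per1, which the receptor also activates, read -0.18 in its lung (other vehicle lungs 0.46 to 1.65), -1.93 in its liver (others -1.18 to 0.28) and -1.26 in its forestomach (others -0.10 to 0.15). Of the clock list, it was the lowest for 6 of 10, 6 of 10 and 7 of 11 genes, more than any other vehicle animal. Dbp, an output gene of the circadian clock, read -0.68, -1.08 and -1.75 in its lung, liver and forestomach, with the other vehicle livers at 0.86 to 2.29. Arntl, which encodes the clock activator Bmal1, was at its highest in the vehicle group there (0.74, 1.81 and 0.92). The hour of collection of each mouse was not in the labels used here, and its part in these values was not tested.

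Fkbp5 and Tsc22d3 were called in none of the dose groups. Of all lung probes limma called 0%, 0.556% and 1.88% at D1, D2 and D3. The liver shares were 0.241%, 0.588% and 0.434%, those of forestomach 0%, 0.0124% and 0.0248%, so calls were rare for any gene outside lung at D3. At D1, where 0 probes were called in lung and in forestomach, 2267 and 1427 had an unadjusted p under 0.05. For the trend the lung share was 11.6%, the liver share 0.676% and the forestomach share 0.0248%, and 0 of 6 members passed it in any tissue. Of the members, 2 (lung), 1 (liver) and 1 (forestomach) had an unadjusted trend p under 0.05.

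**Figure D2:**
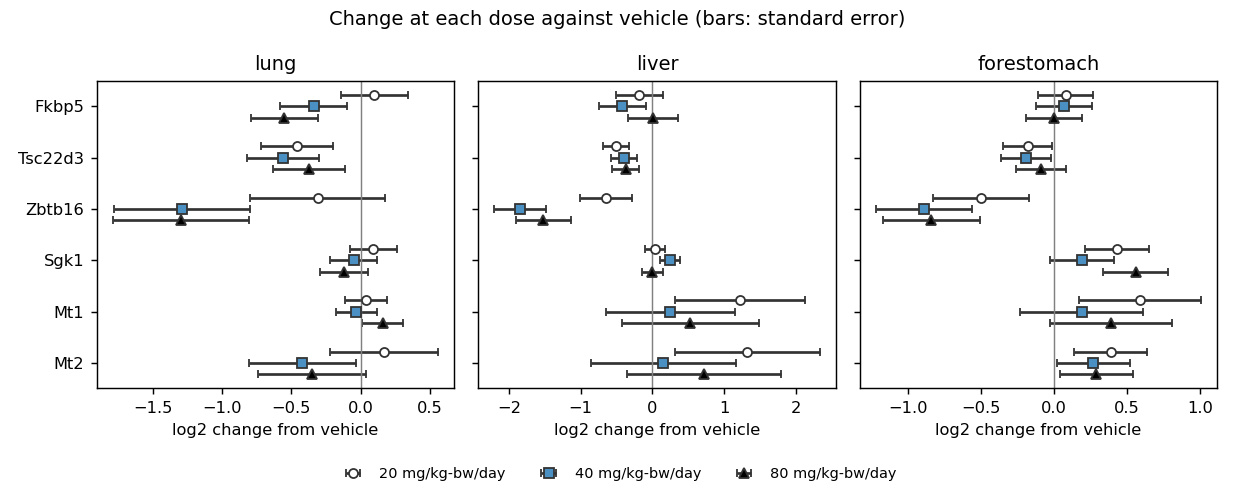
Log2 change against vehicle (points, bars ± SE from limma) of the 6 members in the 3 tissues, at a daily BaA dose of 20, 40 or 80 mg/kg body weight. Zbtb16 lies below 0 in all 9 comparisons and passes the thresholds once, in liver at 40 mg/kg-bw/day (-1.84), while the wide bars of Mt1 and Mt2 in liver go with one animal at 20 mg/kg-bw/day.

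In lung, Fkbp5 was at -0.77, -0.50, -1.51, -0.30 and -0.54 in vehicle mice and at -1.60, -0.24, -0.08, -0.40 and -0.82 at D1. It was at -1.38, -0.74, -1.15, -1.13 and -0.92 at D2 and at -1.49, -0.94, -1.21, -1.38 and -1.36 at D3. At D2 and D3, 9 of 10 mice lay below all vehicle mice but mouse 3, and none lay below mouse 3. The slope over 80 mg/kg-bw/day was -0.64 (adjusted p = 0.0742), and it passed without the D1 lung of mouse 6 (adjusted p = 0.0374) or without mouse 3 (adjusted p = 0.0199). The D3 change was -0.55 (SE 0.24, adjusted p = 0.168), and the D2 change of -0.34 turned to 0.26 under median centring. In liver, Fkbp5 ranged from -0.83 in mouse 3 to 1.11 among vehicle mice and from -0.70 to 1.35 among dosed mice. In forestomach it ranged from -0.10 to 0.09 and from -0.39 to 0.53. The dosed livers thus reached above the vehicle range but not below it, and the dosed forestomachs spread past both its ends.

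Tsc22d3 in lung was at 2.69, 3.23, 1.58, 2.78 and 2.56 in vehicle mice and at 1.65, 2.01, 2.65, 2.37 and 1.87 at D1. It was at 1.56, 2.39, 1.68, 1.94 and 2.48 at D2 and at 1.72, 2.06, 2.05, 2.59 and 2.56 at D3. All 15 dosed lungs lay below the vehicle median of 2.69, and the vehicle mouse 3 read lower than all but 1 of them. The mean changes were -0.46, -0.56 and -0.37 (SE 0.26 each, adjusted p = 0.74, 0.304 and 0.424). Those of liver were -0.51, -0.40 and -0.37 (adjusted p = 0.416, 0.359 and 0.387) and in forestomach -0.18, -0.19 and -0.09. The mean was thus below vehicle in 9 of 9 comparisons, but in 7 of 9 under median centring, where lung and forestomach at D2 were 0.09 and 0.08. As for Zbtb16, these comparisons share vehicle mice and animals and are not separate observations.

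Sgk1, whose kinase regulates ion transport and cell survival, had changes of -0.12 to 0.09 in lung and 0.00 to 0.24 in liver. In forestomach the vehicle mice were at 0.18, 0.36, -0.01 and 0.23, and the D1 mice at 0.51, 1.30, 0.51, 0.53 and 0.27. The D2 mice were at 0.27, 0.41, 0.17, 0.29 and 0.75, and the D3 mice at 0.31, 0.44, 0.46, 1.17 and 1.36. The upper values came from mice 7, 19 and 20, and each dose group overlapped with vehicle. These 3 arrays, and that of mouse 15 (0.75), were all on slide 2. The change at D3 was 0.56 (SE 0.22, adjusted p = 0.859), 0.49 with slide as a block, 0.43 with the mean of the glandular stomach genes as a covariate and 0.42 with that of the fat genes. High glandular genes were on 6 of 6 arrays of slide 2 and on 4 of the 13 others. On the 10 arrays with high glandular genes Sgk1 was 0.27 to 1.36, against -0.01 to 0.46 on the other 9.

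The promoter table of RefSeq (GRCm38.p6) held 5 of the 6 members, all but Zbtb16, with 250 bases before and 50 after each start. It was searched on both strands for the receptor's palindromic binding motif, AGAACA and TGTTCT with any 3 bases between them. Only 3 of 32851 windows in the table held this exact form (0.00913%), and 1 of them belonged to Sgk1, at the fifth of its 6 listed starts. The single arm AGAACA was in 19% of all windows, and each palindrome holds it on both strands. The stretch before that Sgk1 start (chr10:21993640-21993889, plus strand) is shown for this motif, in capitals, 189 to 175 bases before the start:

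Sgk1: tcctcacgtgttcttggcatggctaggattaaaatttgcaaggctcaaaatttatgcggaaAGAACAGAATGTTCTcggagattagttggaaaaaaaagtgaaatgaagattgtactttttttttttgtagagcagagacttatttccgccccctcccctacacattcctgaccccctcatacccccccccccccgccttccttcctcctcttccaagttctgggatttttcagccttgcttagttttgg

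Fkbp5, at its 1 listed start, held neither form, and Tsc22d3 held the single arm at 1 of 3 starts. Many receptor sites lie outside such windows or differ from these letters. A match describes letters only, and no binding was measured.

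The 2 metallothionein genes showed no called change with dose in any tissue, but their levels varied together from mouse to mouse. In liver, Mt2 was at -4.26, -4.31, -4.28, -3.50 and -4.24 in vehicle mice and at -4.02, -4.36, 2.97, -4.25 and -4.35 at D1. It was at -4.19, -4.10, -4.22, -3.19 and -4.18 at D2 and at -4.42, -3.09, -4.45 and -1.64 at D3. One animal, mouse 8 at D1, exceeded the next of its group by 6.99 on the log2 scale, a 127-fold step, and mouse 19 at D3 was next at -1.64. Mt1 in liver was at -4.35, -3.79, -4.67, -3.30 and -3.77 in vehicle mice and at -4.09, -4.21, 2.34, -4.16 and -3.64 at D1. It was at -4.13, -3.91, -4.19, -3.02 and -3.38 at D2 and at -4.0, -3.17, -4.57 and -2.05 at D3. Mice 8 and 19 were again the highest, and mouse 8 led its group by 63.1-fold.

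**Figure D3:**
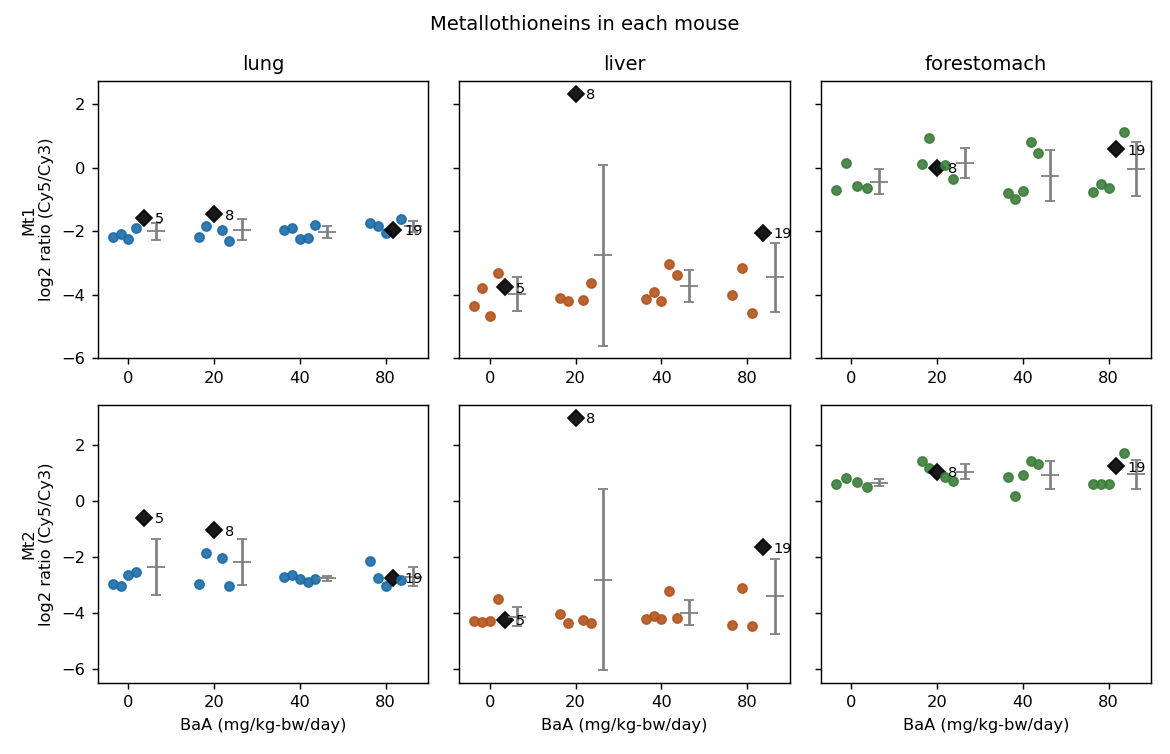
Levels of Mt1 and Mt2, as log2(Cy5/Cy3), in each mouse by tissue and BaA dose, with the group mean ± SD in grey and mice 5, 8 and 19 as diamonds. In liver, mouse 8 (2.34 for Mt1 and 2.97 for Mt2) lies far above the other livers, and in lung mouse 5 (-0.59 for Mt2) is the highest vehicle animal.

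The mean liver changes at D1, 1.22 (SE 0.90, adjusted p = 0.857) for Mt1 and 1.32 (SE 1.01, adjusted p = 0.874) for Mt2, came down to -0.05 and -0.12 without mouse 8. Other values of the same liver also differed from its group. The array correlated least with the other liver arrays (mean r 0.964, others 0.972 to 0.981) and was the lowest of D1 for 3 of 3 liver markers. Fkbp5 was at 1.35, its highest value in any liver. Of 8 acute-phase genes, mouse 8 was the highest of D1 for 4 and mouse 6 for the other 4, and of 6 genes of the metal response mouse 8 was the highest for 3 and the lowest for 1. The genes named next were chosen from these lists after their values were seen. Lcn2, an acute-phase gene, read 4.14 against 0.46 to 2.09 in the other D1 livers, and Saa3, another, read 0.24 against -2.62 to -1.99. Slc39a14, which encodes a zinc importer, read 3.26 against 1.26 to 1.73, and Hmox1, a stress-response gene, -1.34 against -2.31 to -2.18. In the lung of mouse 8, 5 of 6 members were the highest of the D1 group, with Mt2 at -1.03, Mt1 at -1.46 and Zbtb16 at 5.15. The part of inflammation or of metal load in these values was not tested.

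In lung, Mt2 was at -2.95, -3.03, -2.62, -2.51 and -0.59 in vehicle mice and at -2.96, -1.85, -1.03, -2.03 and -3.01 at D1. It was at -3.04 to -2.14 in the 10 lungs of D2 and D3. The high lungs were those of mouse 5, whose array also carried squamous and muscle genes, and of mice 7, 8 and 9. The mean change at D2 was -0.42, and it was 0.02 without mouse 5. Mt1 varied less in lung, from -2.23 to -1.58 in vehicle mice and from -2.32 to -1.46 in dosed mice, and mouse 5 and mouse 8 were again the highest of their groups.

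In forestomach, Mt1 was at -0.70, 0.16, -0.56 and -0.63 in vehicle mice and at 0.13, 0.93, 0.01, 0.10 and -0.35 at D1. It was at -0.79, -0.97, -0.72, 0.81 and 0.46 at D2 and at -0.76, -0.51, -0.65, 0.58 and 1.13 at D3. These values fell into a high and a low set, and the sets matched the glandular stomach genes: Mt1 was -0.35 to 1.13 on the 10 arrays with high glandular genes and -0.97 to -0.51 on the other 9, with no overlap. Mt2 was 0.74 to 1.73 and 0.18 to 0.92 on the same arrays. With the mean of the glandular genes as a covariate, the D1 changes went from 0.59 to -0.35 for Mt1 and from 0.39 to -0.07 for Mt2. Zbtb16 kept its direction under that covariate (-0.16, -0.78 and -0.71 at D1, D2 and D3), and 0 of 6 members were called with limma.

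**Figure D4:**
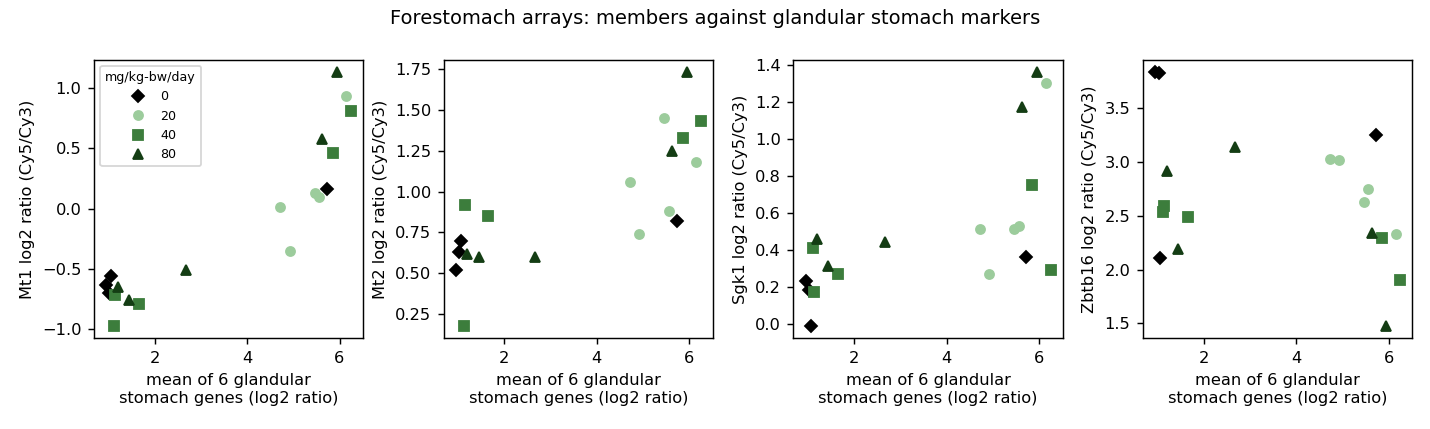
Levels of Mt1, Mt2, Sgk1 and Zbtb16 in forestomach, as log2(Cy5/Cy3), against the mean log2(Cy5/Cy3) of 6 glandular stomach genes, 1 point per mouse, marked by dose. Mt1 separates the 10 arrays at 4.72 to 6.25 on the horizontal axis from the 9 at 0.95 to 2.67.

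Mt2 and Mt1 are neighbours on chromosome 8, with listed starts 6471 bases apart on the same strand. Their promoters were searched for the core of the metal response element, the site of Mtf1 (TGCACNC or TGCGCNC, both strands, N being any base). It was present in 25.7% of the 32851 windows of 300 bases, and 1.97% held at least 3. Mt1 held 3 and Mt2 held 4, a number reached by 0.517% of windows. The 250 bases before each start are shown with the cores in capitals, chr8:94178839-94179088 for Mt1 and chr8:94172368-94172617 for Mt2, both on the plus strand. In Mt2 the cores begin 223, 128 and 50 bases before the start, and in Mt1 the one printed begins 23 bases before it. The other matches lie past the start:

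Mt1: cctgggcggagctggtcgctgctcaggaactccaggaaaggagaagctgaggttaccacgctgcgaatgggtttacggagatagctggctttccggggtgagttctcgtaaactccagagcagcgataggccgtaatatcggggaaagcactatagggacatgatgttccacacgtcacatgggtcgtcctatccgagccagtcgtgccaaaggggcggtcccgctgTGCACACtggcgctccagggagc

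Mt2: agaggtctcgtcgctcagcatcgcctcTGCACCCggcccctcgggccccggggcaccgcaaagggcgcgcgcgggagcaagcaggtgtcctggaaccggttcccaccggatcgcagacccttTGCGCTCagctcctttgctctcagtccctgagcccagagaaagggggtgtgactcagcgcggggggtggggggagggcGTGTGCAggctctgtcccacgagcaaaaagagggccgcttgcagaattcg

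These letters describe the sequence and say nothing about occupancy in these tissues.

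The joint fit also tested, by interaction terms, whether dose acted differently in different tissues. By limma 0 of 6 members were called in any of the 9 such comparisons, and 2 of them had a member at an unadjusted p under 0.05. Both were Sgk1 at D3: lung minus forestomach was -0.68 (SE 0.26, unadjusted p = 0.0123, adjusted p = 0.383) and liver minus forestomach -0.56 (SE 0.27, adjusted p = 0.708). Over all probes, the shares called were 0.151%, 2.19% and 2.06% for lung minus liver at D1, D2 and D3, 0%, 0.0950% and 0.257% for lung minus forestomach, and 0.0272%, 0.217% and 0.0453% for liver minus forestomach. For lung minus forestomach at D1, 1414 probes had an unadjusted p under 0.05. The Zbtb16 call in liver was therefore not shown to be particular to liver.

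Tissues of one mouse were next compared with each other, because a hormone in the circulation reaches all of them. Deviations from the dose group mean were correlated across mice, over 19 mice for lung and liver, 19 for lung and forestomach and 18 for liver and forestomach. For Zbtb16 Pearson's r was 0.75 between lung and liver (Spearman's rho 0.57, permutation p = 0.0114 and 0.0303), 0.75 between lung and forestomach (rho 0.62, permutation p = 0.0161 and 0.0292) and 0.64 between liver and forestomach (rho 0.48, permutation p = 0.0456 and 0.0872). These were at percentiles 99.3, 99.5 and 98.3 of r over all probes, whose median r was 0.10, 0.07 and 0.03. Adjusted over all probes they did not pass (adjusted p = 0.0991, 0.129 and 0.468). Without the 2 mice farthest from the median on the first axis, r was 0.18, 0.33 and 0.20. Dropping the extremes of an axis can lower r by itself, so this does not settle how far the relation rested on those animals. With any 1 mouse left out, r was 0.49 to 0.84, 0.56 to 0.80 and 0.28 to 0.74. With slide means removed too, it was 0.75, 0.86 and 0.78.

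**Figure D5:**
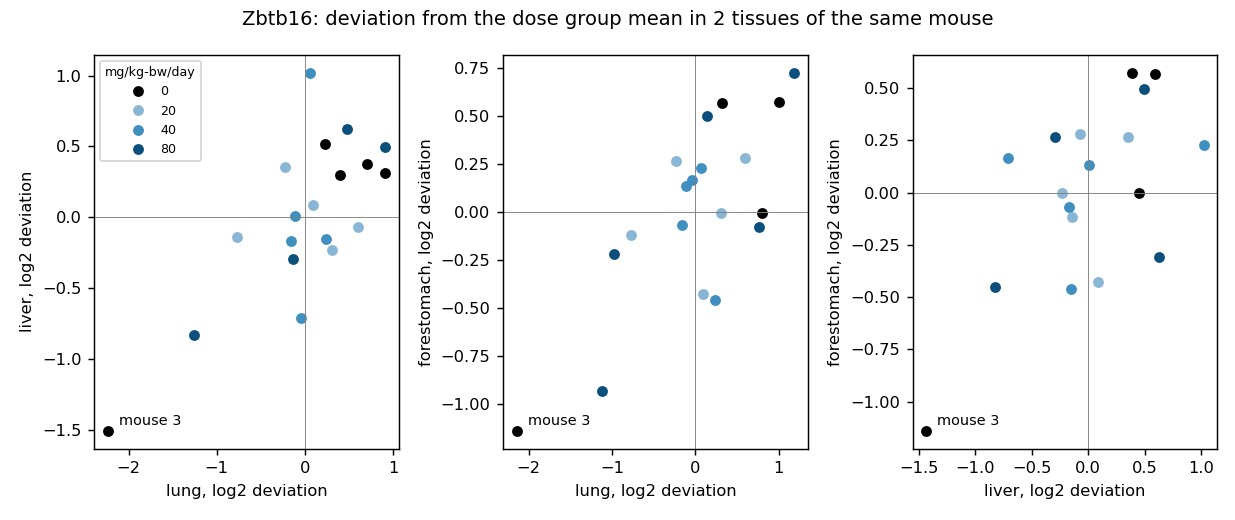
Zbtb16 deviations from the dose group mean (log2 units) in one tissue against another of the same mouse, for the 3 pairs of tissues, 1 point per mouse, with mouse 3 marked. Mouse 3 lies at the lower left in each panel, and r drops from 0.75, 0.75 and 0.64 to 0.18, 0.33 and 0.20 without the 2 farthest mice.

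Fkbp5 had r of 0.71 between lung and liver (rho 0.53, permutation p = 0.012 and 0.0326, adjusted p = 0.198), and 0.39 without the 2 farthest mice. Its values for the other pairs were 0.44 and 0.46. Tsc22d3 had r of 0.71 between lung and forestomach (rho 0.67, permutation p = 0.00349 and 0.00534, adjusted p = 0.227), and this one stayed at 0.67 without the 2 farthest mice. Its r was 0.37 between lung and liver and 0.27 between liver and forestomach. Sgk1 had r of -0.53 between lung and forestomach (rho -0.37, permutation p = 0.0351 and 0.175, adjusted p = 0.617), and -0.22 without the 2 farthest mice. Mt1 and Mt2 were at 0.56 and 0.41 between lung and liver, and 0.04 and -0.10 without the 2 farthest mice. Over all 18 relations, 0 members were called, against 0.439%, 0.299% and 0.344% of all probes in the 3 pairs. Without removal of the dose group means, Zbtb16 passed in all 3 pairs (r 0.83, 0.81 and 0.76, adjusted p = 0.00433, 0.00843 and 0.0493) and Tsc22d3 in lung and forestomach (r 0.73, adjusted p = 0.0479), values that include any shared change with dose.

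Within a tissue, the members did not vary as one set. All pairs were compared as deviations from dose group means, 45 relations over the 3 tissues, with permutation p-values that are not adjusted. Mt1 and Mt2 had positive correlations in each tissue, with r of 0.82 in lung, 0.98 in liver and 0.86 in forestomach (rho 0.75, 0.92 and 0.89, permutation p = 0.00037, 0.00024 and 0.00022, and r of 0.68, 0.90 and 0.78 without the 2 farthest mice). Fkbp5 and Zbtb16 had r of 0.73 in lung (rho 0.69, permutation p = 0.00028) and 0.63 in forestomach (rho 0.73, permutation p = 6e-05), and 0.56 and 0.63 without the 2 farthest mice. In liver it was 0.32. Against all probes, Mt2 ranked 3 for likeness to Mt1 in lung and 1 in liver, but 1500 of 32236 in forestomach, where Zbtb16 ranked 660 for likeness to Fkbp5. Many probes thus had correlations of this size with Mt1 or Fkbp5 in forestomach. From the other side, Mt1 ranked 11 there for likeness to Mt2, and Fkbp5 ranked 493 for likeness to Zbtb16. In lung, Zbtb16 ranked 21 for likeness to Fkbp5, and Mt1 ranked 23 for likeness to Mt2. Fkbp5 and Tsc22d3 had r of 0.71 in lung, 0.40 in liver and -0.01 in forestomach. Mt1 in forestomach went with Sgk1 (r 0.78) and against Zbtb16 (r -0.57), and Mt2 against Fkbp5 (r -0.75), on arrays that differed in glandular stomach genes.

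Over the 58 arrays, deviations from the tissue and dose group means were set against those of 14410 probes tested in all tissues, as a description. The gene most like Mt1 was Mt2 (r 0.93), followed by Isyna1 (0.86) and Lrrc75a (0.84), and that most like Mt2 was Mt1, followed by Cep55 (0.83). For Zbtb16 these were Rnf169 (0.55), Mast3 (0.52) and Fkbp5 (0.52, rank 3). Fkbp5 was most like Slc5a6 (0.71), Tsc22d3 most like the clock output gene Hlf (0.65) and Sgk1 most like Usp32 (0.78). These points share animals and arrays, and liver mouse 8 weighs on those of Mt1 and Mt2.

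The other genes of the pathway gave few calls. Of 6 genes for the receptor and for handling of its ligand, 4 were tested in lung, 5 in liver and 4 in forestomach, and 0 were called at any dose or in the trend. At D3, Nr3c1 itself differed from vehicle by 0.10 (lung), 0.19 (liver) and -0.20 (forestomach) (adjusted p = 0.598, 0.409 and 1). Hsd11b1, which regenerates active hormone inside cells, was at 0.24, -0.24 and -0.01. By limma 0 of the 12 other glucocorticoid targets passed in any tissue (11 were tested in liver), with 2 in each tissue at an unadjusted p under 0.05 at D3. Per1 was at 0.43, 0.02 and 0.34 at D3, Klf9 at -0.38, -0.29 and -0.10, and Dusp1, a phosphatase gene, at 0.01, -0.05 and -0.29. Of the 7 genes of the metal response, only Mtf1 passed, in the lung trend (adjusted p = 0.0234). Its D3 change there, -0.28 (adjusted p = 0.029), was under the fold limit. Among 8 acute-phase genes, Fgg, a fibrinogen chain, rose in lung at D3 (1.03, adjusted p = 0.043) and in the trend.

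The clock list stood apart from the members in lung. Of its 10 genes tested there, 6 rose and 1 fell at D3, and 7 rose and 2 fell in the trend, while 0 of 10 in liver and 0 of 11 in forestomach passed in any test. At D3 in lung, Dbp changed by 1.79, Per3 by 0.93, Per2 by 0.89, Tef and Ciart by 0.86 and Nr1d2 by 0.65, all upward, and Clock by -0.65. Hlf rose and Arntl fell in the trend. In liver and forestomach 4 and 7 of the list had an unadjusted p under 0.05 at D3. By the interaction terms at D3, 0 of 10 were called for lung minus forestomach (median difference -0.04) and 1 of 10 for lung minus liver (0.47). The rise was therefore not shown to differ between lung and forestomach. The part of the hour of collection in the values of these genes, or of the 6 members, was not tested.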

How the data were processed

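Gene expression was measured in lung, liver and forestomach of the same mice on Agilent 2-colour arrays without dye swaps, 58 arrays in all, and their number limits the precision. The deposited array files, read by Feature Extraction 10.7.3.1, give linear spot intensities, of which the medians were taken with no background subtracted, as in the study's methods. A table of log2 ratios deposited by the authors, LOWESS-normalised, served as an alternative (r of 0.995 to 0.998 with the values used here, per array). Its columns had medians of -0.044 to -0.022. Spots marked as outliers (0.495%) were left out, each array was normalised by loess, and testing in a tissue was limited to probes well above background on 4 or more of its arrays.

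Dose groups were compared by limma 3.58.1 in R 4.3.3, in place of the authors' MAANOVA, with Benjamini-Hochberg adjustment over all probes tested (30383 in lung, 22789 in liver and 32318 in forestomach). Calls needed a fold change of 1.5 or more and an adjusted p no higher than 0.05, and for the trend on dose the adjusted p alone. Tissues were compared in a joint fit, and tissues of the same mouse by correlations with 100000 permutations within dose groups. The mouse number pairs tissues of one animal, and the consensus correlation between them was 0.042. Replicates were separate animals. The scripts were tested on simulated data. Alternatives were the authors' log2 table, normexp background correction (offset 50), median centring, no filter on dim probes, slide or mouse number as a block, and each array left out in turn. The pathway lists (receptor and ligand handling, other glucocorticoid targets, metal response, acute phase, clock), the tissue markers and the 6 members were chosen with earlier results of these data known. The text names all members, genes of the pathway lists called at any dose or in a trend, and Nr3c1, Hsd11b1, Per1, Klf9, Dusp1 and Mtf1. Of the tissue markers, 1 of 2 pancreas genes tested in lung was called lower in the trend. The genes given for single mice (3 and 8) and the genes most like a member come beside these, the former chosen after their values were seen. Symbols and promoters came from RefSeq tables of GRCm38.p6, matched by accession and symbol.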

Additional observations from a re-analysis of the deposited data

Results flagged for a closer look

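Of 72 groups (6 members in 12 groups of tissue and dose), 9, or 12.5%, held an animal far from the others of its group by Dixon's ratio of gap to range. Chance flags about 1 in 20 separate groups of normal values. These groups share animals and arrays, so that rate is only a rough guide here. In liver, mouse 8 (D1) read 2.34 for Mt1, with the others at -4.21 to -3.64, and 2.97 for Mt2, with the others at -4.36 to -4.02. Mouse 3 (D0) read 2.62 for Zbtb16 in lung (others 5.09 to 5.76) and 2.89 in liver (others 4.70 to 4.92). Mt2 read -0.59 in the lung of mouse 5 (D0, others -3.03 to -2.51), -3.50 in the liver of mouse 4 (D0, others -4.31 to -4.24) and -3.19 in the liver of mouse 14 (D2, others -4.22 to -4.10). In forestomach, Mt1 was at 0.16 in mouse 2 (D0, others -0.70 to -0.56), the 1 vehicle array with high glandular stomach genes. Sgk1 was at 1.30 in the forestomach of mouse 7 (D1, others 0.27 to 0.53). The causes were not tested.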

How the results depend on the processing

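With 1 array or mouse left out at a time, 972 of 984 counts of called members were scored as unchanged, and with other settings 184 of 191. This score also took in small shifts, such as 4 or 6 members in place of 5. The counts ran from 0 to 1 for lung at D2 and D3, liver at D2 and D3 and the lung and liver correlation, from 0 to 2 for the lung trend, from 4 to 6 for lung minus liver, from 3 to 5 for lung minus forestomach and from 4 to 5 for liver minus forestomach at D0, and were 0 throughout for the other comparisons. The Zbtb16 call in liver at D2 (1 member) became 0 when only D0 and D2 were fitted. Centring arrays on their medians shifted all probes' median change by up to 0.386 in lung, -0.176 in liver and 0.132 in forestomach, and gave 2 members called for lung minus liver and 3 for liver minus forestomach. Without removal of dose means, 1, 2 and 1 members passed in the correlations of lung with liver, lung with forestomach and liver with forestomach. With the glandular stomach mean removed too, a setting chosen after seeing the data, 1 passed for lung with forestomach (Zbtb16, r 0.90, adjusted p = 0.00503).

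Of 5904 values of single members with an array or mouse left out, 122 had the other sign than the reported value, and of 1146 under other settings 59 did, mostly values near 0. Where the reported change exceeded its SE, or r exceeded 0.3 in size, 6 and 13 turned, given here, and none of these was called. Median centring turned Fkbp5, Tsc22d3 and Mt2 in lung at D2 to 0.26, 0.09 and 0.22, the Sgk1 slope in lung to 0.00143 per mg/kg-bw/day and Tsc22d3 in forestomach at D2 to 0.08. It turned the differences between tissues to 0.56 (Sgk1, D2, lung minus liver), 0.02 (Sgk1, D1, lung minus forestomach) and 0.01 (Tsc22d3, D2, lung minus forestomach). Without the lung of mouse 5, or of mice 5 and 16 (chosen after seeing the data), Mt2 in lung at D2 was 0.02. With any 1 array left out, Mt2 in lung at D2 ran from -0.59 to 0.02, Mt1 and Mt2 in liver at D1 from -0.05 to 1.59 and from -0.12 to 1.71, and their D1 differences between lung and liver from -1.54 to 0.09 and from -1.54 to 0.29, with the ends near 0 those without the liver of mouse 8. The glandular stomach covariate, and the fat covariate were also added later. The former gave -0.35 and -0.07 for Mt1 and Mt2 in forestomach at D1. Mt2 had r of -0.10 to 0.62 between lung and liver with a mouse left out (-0.10 without mouse 8, and also without the 2 farthest mice), and Sgk1 -0.23 between liver and forestomach with slide means removed. The causes were not tested unless the setting itself left out the animal. With the mouse number as a replicate block, 5, 5 and 5 members were called between tissues and 0 in the 9 comparisons of dose changes, and it changed no call. Slide as a block in the joint fit left 4 members for lung minus forestomach and 4 for liver minus forestomach. With 4 or 5 animals a group, a vehicle animal as far out as mouse 3 limited what could pass, and the reference signal of Zbtb16 was dim.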
